A study of Homo sapiens with 32 samples.

Results

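MALAT1, KCNQ1OT1, TUG1 and FTX are long noncoding RNAs (lncRNAs, transcripts that encode no protein) known for acting in the nucleus. They were picked by symbol from a table of 32738 gene entries, in which each of the 4 stood on 1 entry, and all 4 were among the 10439 genes with enough counts to be tested. The cells were HEK293, a human cell line that was established from embryonic kidney, and the groups were incubations with 4-thiouracil of 0, 5, 15 and 30 min. Each time had 2 biological replicates, called cultures below, and each culture had 4 libraries of polyA RNA, made as 2 cDNA preparations of 2 libraries each. All groups were thus 1 line, for which the labels name no gene deletion or other agent.

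4-Thiouracil is uracil with a sulphur atom in place of an oxygen. Cells that are able to convert it build it into RNA during the exposure, and such RNA can be told from older RNA. How far these HEK293 cells did so was not measured. The labels refer the incubation to a published transient transcriptome method, which tags and selects newly made RNA, but they do not say for these libraries whether tagged RNA was selected, nor what the 0 min cells received. Each value is therefore a share of the RNA counted at that time and not an amount per cell. How much of the counted RNA was newly made was not measured.

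MALAT1 is an abundant RNA of nuclear speckles, the bodies in which splicing factors collect. Its 3′ end is not made by ordinary cleavage and polyadenylation: RNase P cuts it upstream of a tRNA-like small RNA called mascRNA, and U-rich and A-rich stretches before the cut fold into a triple helix that shields the end from decay, which gives MALAT1 its known long life. KCNQ1OT1 is a very long, unspliced antisense RNA that starts inside the KCNQ1 gene, is made from the paternal chromosome, and stays on chromatin to silence imprinted neighbours. TUG1 is a spliced RNA found in the nucleus and the cytoplasm, and starts head to head with MORC2 from a shared promoter. FTX is a spliced RNA of the X inactivation centre that is made from a very long gene and hosts a group of microRNAs in its introns.

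The 3′ end of MALAT1 is shown first because of its known unusual processing. In GRCh38 (GENCODE 29 annotation) it lies in the single exon of MALAT1 at chr11:65506029-65506173 on the plus strand, bases 8268 to 8412 of the longest annotated transcript. Capitals mark, in order, the first U-rich motif, the second U-rich motif and the A-rich tract, written as DNA, and the annotated small RNA of 57 bases follows directly after the tract.
MALAT1 3′ end: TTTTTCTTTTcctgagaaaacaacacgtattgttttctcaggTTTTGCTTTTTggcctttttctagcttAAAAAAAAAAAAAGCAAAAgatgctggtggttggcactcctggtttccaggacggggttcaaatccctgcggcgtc

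The letters searched for elsewhere were those of MALAT1, so a match in MALAT1 was fixed by that choice. The search took the longest noncoding transcript of each of 26181 genes in that annotation. These include protein-coding genes that also have a transcript of a noncoding class. Of these transcripts, 1 held both U-rich motifs and such an A-rich tract in this order and close together, that of MALAT1. No match to these letters in KCNQ1OT1, TUG1 or FTX says only that these letters are absent there in that order. The 4 transcripts also differ in build. The longest MALAT1 transcript is 1 exon of 8708 bases, KCNQ1OT1 is 1 exon of 91667 bases, the longest TUG1 transcript has 3 exons and 7469 bases, and the longest FTX transcript has 4 exons and 12267 bases out of a gene that spans 347020 bases. Within its sequence KCNQ1OT1 holds 17 runs of 10 or more A, the longest of 29, against 1 run in MALAT1, 1 in TUG1 and 2 in FTX. These numbers are not per length, and KCNQ1OT1 is by far the longest of the 4 transcripts. Of the 26181 noncoding transcripts, which were not matched for length, 7.73% hold any such run. Reverse transcription from oligo(dT) can start on such internal runs, and whether it did so here was not tested.

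The promoter windows of RefSeq (GRCh38.p14, 250 bases before to 50 after the annotated start) show how differently 3 of these genes begin. MALAT1 has a window with a TATA box (TATAAA) at chr11:65498795-65499094 on the plus strand, TUG1 has a window with CCAAT boxes, GC boxes (GGGCGG) and an E-box (CACGTG) at chr22:30969015-30969314 on the plus strand, and FTX has a window with a match to the NRF1 motif at chrX:74293525-74293824 on the minus strand. Capitals mark matches on either strand.
MALAT1 promoter: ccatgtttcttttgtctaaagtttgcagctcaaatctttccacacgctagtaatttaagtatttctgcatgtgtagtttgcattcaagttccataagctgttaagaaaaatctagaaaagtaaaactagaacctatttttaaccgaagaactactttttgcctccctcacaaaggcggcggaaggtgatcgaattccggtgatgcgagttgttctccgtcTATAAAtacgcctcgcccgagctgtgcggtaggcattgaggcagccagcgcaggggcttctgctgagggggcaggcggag
TUG1 promoter: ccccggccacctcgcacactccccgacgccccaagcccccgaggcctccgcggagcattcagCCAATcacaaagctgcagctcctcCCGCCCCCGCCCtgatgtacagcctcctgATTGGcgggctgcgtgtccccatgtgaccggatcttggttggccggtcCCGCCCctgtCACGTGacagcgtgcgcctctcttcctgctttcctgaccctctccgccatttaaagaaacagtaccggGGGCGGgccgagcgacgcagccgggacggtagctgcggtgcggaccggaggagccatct
FTX promoter: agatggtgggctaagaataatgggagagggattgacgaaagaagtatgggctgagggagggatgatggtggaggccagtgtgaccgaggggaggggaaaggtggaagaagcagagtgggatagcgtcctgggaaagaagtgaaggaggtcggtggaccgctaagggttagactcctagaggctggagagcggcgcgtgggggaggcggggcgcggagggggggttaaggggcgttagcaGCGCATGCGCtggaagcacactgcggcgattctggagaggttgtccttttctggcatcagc

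The TATA box of MALAT1 lies 30 bases before the annotated start, and 11.5% of all 35116 windows hold one. The TUG1 window holds 2 CCAAT boxes, 4 GC boxes and 1 E-box, and these motifs occur in 34.6%, 44.95% and 7.26% of all windows. The NRF1 motif lies 11 bases before the FTX start and is the rarest of the motifs searched, in 2.765% of all windows. MALAT1 has a second annotated start, at chr11:65497488-65497787, whose window holds 5 GC boxes, 1 match to the NRF1 motif and none of the other motifs. These matches are descriptions of letters in a window and not sites of binding. KCNQ1OT1 was matched to no window.

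Library totals ranged from 188686 to 381471 counts and culture totals from 776871 to 1396056. The summed level of 9 HEK293 marker genes was 504 to 713 CPM (counts scaled to a culture total of 1000000) over the 8 cultures. All 9 had counts, 7 of them in every culture. VIM gave 2814 and CDKN2A 2080 of their 5987 counts, while PAX2 gave 5 and was at 0 in 5 cultures. Of 17 markers of fibroblasts, blood, endothelium and liver, 10 were at 0 in all 8 cultures, including PTPRC, ALB and CDH5, and the summed level of the 17 was 16.5 and 19.4 CPM at 30 min, against 4.93 and 2.94 CPM at 0 min. APOA1, a liver apolipoprotein gene, gave 62 of their 98 counts. The part of these markers in the results was not tested. Values below are CPM scaled by TMM (trimmed mean of M values, a scaling set by the bulk of the genes), tests are edgeR's quasi-likelihood F test with Benjamini-Hochberg adjustment over all 10439 genes, and a call is an adjusted p under 0.05. P-values measure the spread between 2 samples of a group that the labels call biological replicates.

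MALAT1 fell, and KCNQ1OT1, TUG1 and FTX rose, at 5, 15 and 30 min relative to 0 min. The change was already present at 5 min, and at no later time did MALAT1, KCNQ1OT1 or TUG1 pass the test against 5 min. Against 0 min, 54.7% of all tested genes were called in either direction at 5 min (2998 higher and 2712 lower), 54.4% at 15 min (3110 and 2573) and 55.9% at 30 min (3352 and 2485), so that a call by itself was common in these comparisons. Those splits depend on the scaling: with cultures scaled by their total counts, 4461 genes were called higher and 1448 lower at 5 min, 4901 and 1307 at 15 min, and 5622 and 1331 at 30 min.

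MALAT1, the most highly counted of the 4, had 4318 and 3156 counts in the 2 cultures at 0 min, 2060 and 2688 at 5 min, 3566 and 3635 at 15 min, and 2981 and 3293 at 30 min. In scaled values this was 5219 and 4875 CPM at 0 min, 2431 and 1899 CPM at 5 min, 2305 and 2486 CPM at 15 min, and 1790 and 2024 CPM at 30 min. Both 0 min cultures stood above all 6 incubated cultures, which lay close together. The 5 min level averaged 2165 ± 376 CPM, against 5047 ± 243 CPM at 0 min (SD, n = 2 cultures each), a log2 fold change of -1.22 ± 0.19 (SE, adjusted p = 1.88e-06). At 15 min the mean was 2395 ± 128 CPM and the log2 fold change to 0 min -1.08 ± 0.19 (adjusted p = 1.45e-05), and at 30 min it was 1907 ± 166 CPM and -1.40 ± 0.19 (adjusted p = 1.66e-07). MALAT1 thus remained 2.65-fold lower at 30 min than at 0 min.

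KCNQ1OT1, the imprinted antisense RNA, had the largest rise of the 4. It had 21 and 10 counts at 0 min, 97 and 178 at 5 min, 195 and 189 at 15 min, and 240 and 162 at 30 min. The scaled levels were 25.4 and 15.5 CPM at 0 min, 115 and 126 CPM at 5 min, 126 and 129 CPM at 15 min, and 144 and 99.6 CPM at 30 min. No incubated culture came near the 0 min cultures, and the cultures at 30 min were spread the most. Its level was 120 ± 7.98 CPM at 5 min, against 20.4 ± 7.03 CPM at 0 min, a 5.75-fold higher value (log2 2.52 ± 0.30, adjusted p = 1.16e-08). The log2 fold change to 0 min was 2.60 ± 0.30 at 15 min (adjusted p = 5.34e-09) and 2.54 ± 0.30 at 30 min (adjusted p = 6.33e-09). Its 0 min level rests on few counts, with an exact 95% counting interval of 4.80 to 18.4 counts for the lower culture, which covers counting error only, and on 1 to 7 counts in a single library.

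TUG1 had 30 and 19 counts at 0 min, 65 and 124 at 5 min, 155 and 105 at 15 min, and 197 and 177 at 30 min. Scaled, these were 36.3 and 29.4 CPM at 0 min, 76.7 and 87.6 CPM at 5 min, 100 and 71.8 CPM at 15 min, and 118 and 109 CPM at 30 min. The lowest incubated culture, 1 of the 15 min cultures, was still above both 0 min cultures. The mean was 82.2 ± 7.71 CPM at 5 min, against 32.8 ± 4.89 CPM at 0 min, a log2 fold change of 1.32 ± 0.29 (adjusted p = 0.000226), the smallest rise of the 3 at that time. At 15 min the log2 fold change to 0 min was 1.38 ± 0.28 (adjusted p = 0.000102), and at 30 min, with a mean of 114 ± 6.72 CPM, it was 1.78 ± 0.28 (adjusted p = 1.47e-06).

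FTX had 64 and 47 counts at 0 min, 230 and 368 at 5 min, 324 and 285 at 15 min, and 333 and 316 at 30 min. Its scaled levels were 77.4 and 72.6 CPM at 0 min, 271 and 260 CPM at 5 min, 210 and 195 CPM at 15 min, and 200 and 194 CPM at 30 min. FTX was highest at 5 min, where both cultures stood above all others, and the cultures of each time lay close together. The mean was 266 ± 8.09 CPM at 5 min, against 75.0 ± 3.37 CPM at 0 min, a 3.53-fold higher value (log2 1.82 ± 0.20, adjusted p = 2.85e-09). The log2 fold change to 0 min was 1.43 ± 0.20 at 15 min (adjusted p = 3.54e-07) and 1.39 ± 0.20 at 30 min (adjusted p = 4.74e-07).

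**Figure D1:**
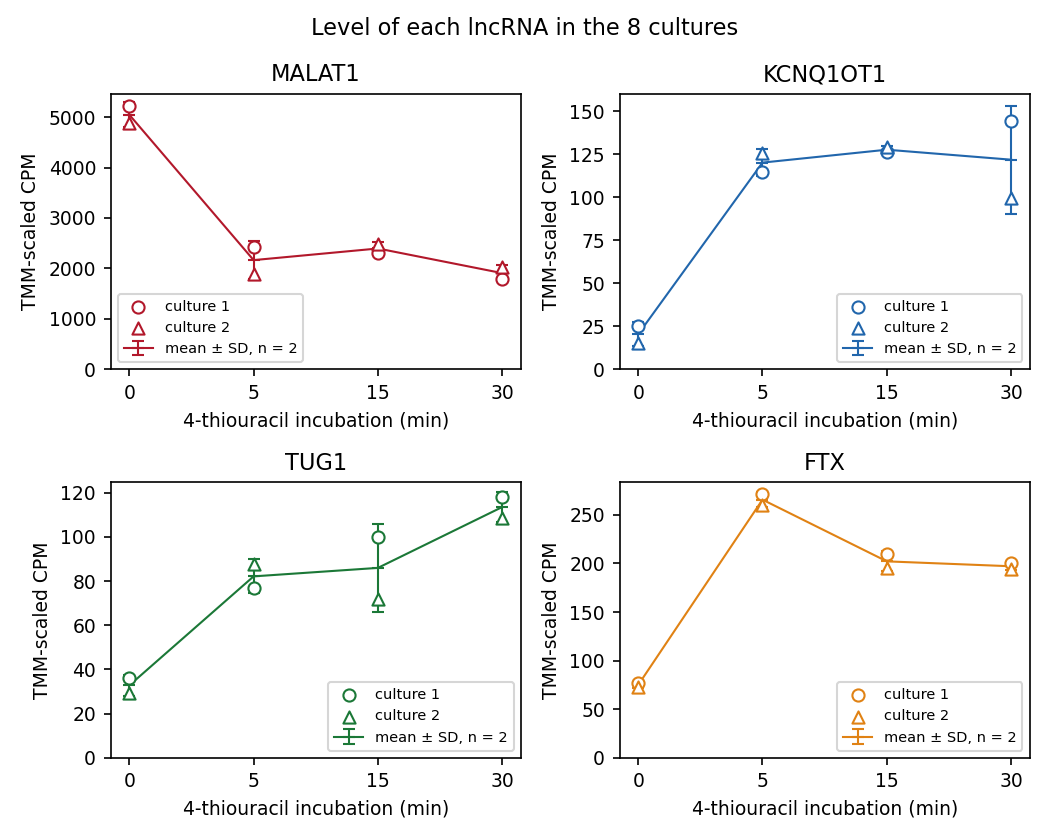
TMM-scaled CPM (vertical axis, from 0, a separate range per panel) of MALAT1, KCNQ1OT1, TUG1 and FTX against the incubation time in min. Circles are culture 1, triangles culture 2, and the line with bars is the mean ± SD of 2 cultures; the MALAT1 means are 1907 CPM at 30 min and 5047 CPM at 0 min, while the other 3 lncRNAs are higher at each incubated time than at 0 min, FTX most at 5 min with 266 CPM.

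In all 12 comparisons of a member with 0 min the cultures did not overlap. That held for 73.7% of all tested genes at 5 min, 76.0% at 15 min and 77.6% at 30 min, in either direction, so the absence of overlap is itself near the background. The size of the fold changes depended on the scaling between cultures, because a median gene rose by 0.10, 0.19 and 0.35 on the log2 scale under TMM at 5, 15 and 30 min, and by 0.83, 0.96 and 1.22 when cultures were scaled by their total counts. The log2 fold changes to 0 min in all that follows would thus be higher by 0.73, 0.77 and 0.88 at these times with total counts, for the median gene. With total counts the log2 fold changes to 0 min of MALAT1 were -0.49 at 5 min (adjusted p = 0.00825), -0.30 at 15 min (adjusted p = 0.100, no longer called) and -0.52 at 30 min (adjusted p = 0.00383). Those of the others were then larger, at 3.25, 3.37 and 3.41 for KCNQ1OT1, 2.05, 2.15 and 2.65 for TUG1, and 2.55, 2.20 and 2.27 for FTX. Relative to the median gene both scalings gave like values, and MALAT1 lay 1.33, 1.26 and 1.75 below it under TMM.

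Among the incubated times, no member passed the test. From 5 to 30 min, where 12.4% of all tested genes were called in either direction, the log2 fold change was -0.18 ± 0.19 for MALAT1 (adjusted p = 0.6004), 0.02 ± 0.22 for KCNQ1OT1 (adjusted p = 0.976), 0.46 ± 0.23 for TUG1 (adjusted p = 0.208) and -0.43 ± 0.17 for FTX (adjusted p = 0.0994). FTX at 30 min was below both 5 min cultures, and with the scaling of DESeq2's size factors in edgeR its log2 fold change was -0.53 and passed the test (adjusted p = 0.0313). Between 15 and 5 min 1.55% of all genes were called and between 30 and 15 min 5.04%, and in neither comparison was any of the 4. Their log2 fold changes were -0.39 to 0.15 at 15 against 5 min and -0.33 to 0.40 at 30 against 15 min. A missed threshold with 2 cultures a time does not show that these levels were equal.

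The ratio of 2 members within a culture needs no scaling between cultures, and so contrasts MALAT1 with the other 3 directly. Counts are not per length here, so only the change of a ratio is read, not its size. MALAT1 made up 97.4% and 97.7% of the counts of the 4 genes in the 0 min cultures, 84.0% and 80.1% at 5 min, 84.1% and 86.3% at 15 min, and 79.5% and 83.4% at 30 min. The highest Wilson 95% limit among the incubated cultures was 87.3% and the lowest at 0 min 96.9%. The intervals of the 0 min cultures thus overlapped none of the incubated ones, on counting error alone.

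MALAT1 counts per KCNQ1OT1 count were 206 and 316 in the 0 min cultures, 21.2 and 15.1 at 5 min, 18.3 and 19.2 at 15 min, and 12.4 and 20.3 at 30 min. Over the 6 incubated cultures this ratio was 14.6-fold lower than over the 2 cultures at 0 min, a difference in mean log2 ratio of -3.87. Per TUG1 count the MALAT1 counts were 144 and 166 at 0 min, 31.7 and 21.7 at 5 min, 23.01 and 34.6 at 15 min, and 15.1 and 18.6 at 30 min, which is 6.68-fold lower after incubation (log2 -2.74). Per FTX count they were 67.5 and 67.2 at 0 min, 8.96 and 7.30 at 5 min, 11.01 and 12.8 at 15 min, and 8.95 and 10.4 at 30 min, 6.91-fold lower after incubation (log2 -2.79). In each of these 3 ratios all 6 incubated cultures were below both 0 min cultures.

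KCNQ1OT1 also rose relative to TUG1 and FTX. Its counts per TUG1 count averaged (geometric mean of 2 cultures) 0.607 in the 0 min cultures, 1.46 at 5 min, 1.51 at 15 min and 1.06 at 30 min, a 2.18-fold higher ratio after incubation. Per FTX count they averaged 0.264 in the 0 min cultures, 0.452 at 5 min, 0.632 at 15 min and 0.608 at 30 min, 2.11-fold higher after incubation. TUG1 per FTX count was 0.435 in the 0 min cultures, 0.309 at 5 min, 0.420 at 15 min and 0.576 at 30 min, with no separation of incubated from 0 min cultures.

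An exact two-sided permutation test of 6 incubated against 2 cultures at 0 min has 28 arrangements and cannot go below p = 0.0357. Each of the 5 ratios that separated reached that smallest value, with p = 0.0429 after adjustment over the 6 pairs of members, and the ratio of TUG1 to FTX gave p = 0.893 by the same exact permutation test. These are the smallest values the design allows, and leaving out any 1 culture or using 1 library of each cDNA put the adjusted p above the threshold. With 1 library of each cDNA the difference in the log2 ratio of KCNQ1OT1 to TUG1 was 0.45, against 1.13 with all libraries. The times are pooled in this test, since 2 cultures against 2 could not reach the threshold.

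**Figure D2:**
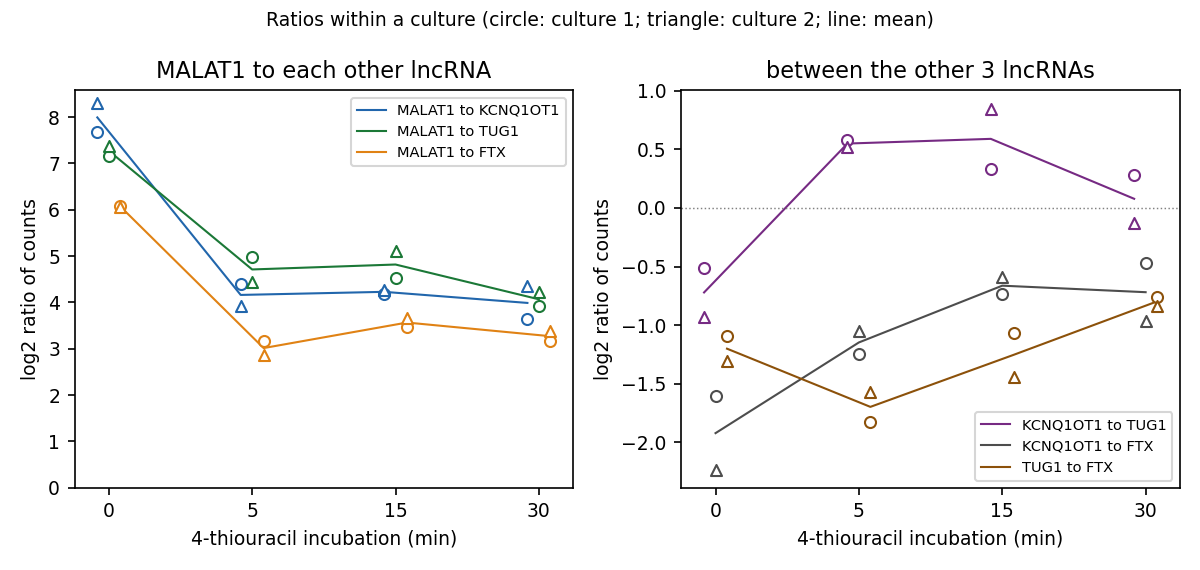
Log2 ratio of counts of 2 lncRNAs within a culture (vertical axes, which differ) against the incubation time in min; circles are culture 1, triangles culture 2, and lines join the means of 2 cultures. Left, MALAT1 to each other lncRNA, with every incubated culture below both 0 min cultures; right, the ratios among KCNQ1OT1, TUG1 and FTX, where the ratio of TUG1 to FTX does not separate the incubated cultures from 0 min.

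Set among all 10439 tested genes, MALAT1 had a log2 fold change above 20.9% of them at 5 min, 21.7% at 15 min and 15.7% at 30 min, each against 0 min. KCNQ1OT1 stood above 91.2%, 93.1% and 92.6%, TUG1 above 74.6%, 75.4% and 82.1%, and FTX above 82.8%, 76.4% and 74.1%. TUG1 thus took a higher place at 30 min than at 5 min and FTX a lower one, although neither passed the test between those times.

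Housekeeping mRNAs known for long lives were all lower after incubation than at 0 min. All 22 tested, among them the ribosomal protein mRNAs RPL8 and RPLP0, fell at 5, 15 and 30 min against 0 min, with median log2 fold changes of -1.80, -1.81 and -2.24. Over all 10439 tested genes 2712, 2573 and 2485 were called lower at these times. With total counts 20, 20 and 19 of the 22 fell and 0 rose. From 5 to 30 min 5 of the 22 fell and 2 rose under TMM, where 12.4% of all tested genes were called in either direction. RPL8 averaged 5014 CPM at 5 min, against 19320 CPM at 0 min (log2 -1.95, adjusted p = 2.26e-09), and RPLP0 2904 CPM at 5 min, against 13850 CPM at 0 min (log2 -2.25, adjusted p = 4.54e-11). MALAT1 moved the same way but less than most of them: 20 of the 22 had a lower log2 fold change than MALAT1 at 5 min, 20 at 15 min and 19 at 30 min. KCNQ1OT1, TUG1 and FTX stood above all 22 at each time.

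Immediate-early and other mRNAs known for short lives were called higher mostly at 15 and 30 min. At 5 min 4 of 24 rose and 6 fell (median log2 fold change -0.47, against 0.26 with 9 higher and 4 lower under total counts), at 15 min 16 rose and 0 fell (1.27), and at 30 min 24 rose and 0 fell (2.44). Over all 10439 tested genes 54.7%, 54.4% and 55.9% were called at these times in either direction, with 2998, 3110 and 3352 called higher. From 5 to 30 min 23 of 24 rose (median 3.03), against 0 of the 4 lncRNAs and 5.88% of all tested genes. DUSP1, a phosphatase that switches off MAP kinases, averaged 15.8 CPM at 0 min, 42.3 CPM at 5 min and 719 CPM at 30 min. HES1, a Notch target that represses transcription, averaged 302 CPM at 0 min, 270 CPM at 5 min (log2 fold change to 0 min -0.16, adjusted p = 0.527, against a called 0.58 with total counts) and 983 CPM at 30 min (1.71, adjusted p = 5.34e-09). At 5 min KCNQ1OT1 and FTX were above all 24 of these mRNAs and TUG1 above 23, while at 30 min KCNQ1OT1 was above 12, TUG1 above 6 and FTX above 0. These counts cover the 24 of 26 listed mRNAs that passed the filter on low counts, which a gene high only at 30 min passes through that time.

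**Figure D3:**
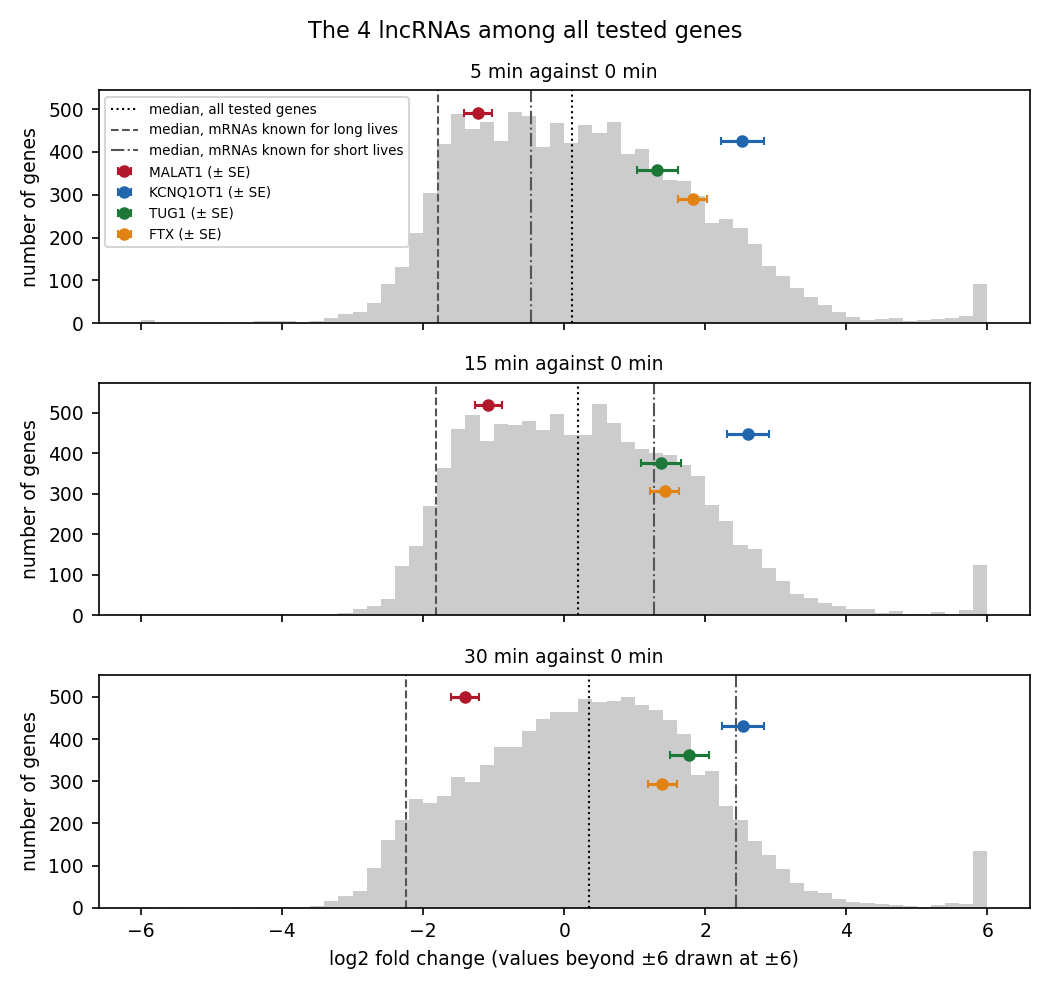
Histograms of the log2 fold change of all 10439 tested genes (horizontal axis) at 5, 15 and 30 min against 0 min, with the number of genes on the vertical axis. Coloured points with bars are the 4 lncRNAs ± SE, placed at arbitrary heights; MALAT1 lies left of the median of all genes (dotted) and right of the median of mRNAs known for long lives (dashed), and the median of mRNAs known for short lives (dash-dotted) lies at -0.47 at 5 min, 1.27 at 15 min and 2.44 at 30 min.

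Among the lncRNAs as a class, calls in the direction of KCNQ1OT1, TUG1 and FTX outnumbered those in the direction of MALAT1. Of 182 tested genes that GENCODE 29 classes as lncRNAs, matched by symbol, 59 rose and 20 fell at 5 min (95 and 9 with total counts), with a median log2 fold change of 0.83, and 83 rose and 12 fell at 30 min (median 1.29), beside medians over all genes of 0.10 and 0.35. MALAT1 had 17 of the 182 below it at 5 min and 10 at 30 min. KCNQ1OT1 had 31 and 32 above it, TUG1 70 and 63, and FTX 53 and 81. At 5 min the share that rose was 44.3% of 61 lncRNAs whose gene spans 50 kb or more, a class with KCNQ1OT1 and FTX in it, and 21.6% of 74 that span under 10 kb, the class of MALAT1. At 30 min the shares were 47.5% and 45.95%. Neither the difference between the classes nor that from all tested genes was tested.

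Among other lncRNAs known as nuclear or chromatin-bound, 14 of 20 on the list had an entry and 7 were tested. Of the 7, 3 rose at 5 min and 4 at 30 min, and 0 fell. Of all tested genes 54.7% and 55.9% were called at these times, in either direction. With total counts 4 and 6 rose, and with size factors 3 rose at each time and 1 fell at 30 min, JPX. NEAT1, the scaffold of paraspeckles and the neighbour of MALAT1 on the chromosome, averaged 114 CPM at 0 min, 240 CPM at 5 min and 341 CPM at 30 min, with log2 fold changes to 0 min of 1.08 (adjusted p = 1.47e-05) and 1.58 (adjusted p = 9.56e-09). The 2 neighbours thus moved in opposite directions. NEAT1 was also higher at 30 min than at 5 min (log2 0.50, adjusted p = 0.0465), a call that ended without any 1 of the cultures at 5 or 30 min (log2 0.43 to 0.59, adjusted p = 0.124 to 0.260) and with size factors (0.40, adjusted p = 0.111). LINC-PINT, a p53-induced lncRNA, had log2 fold changes of 2.88 at 5 min and 2.48 at 30 min, both called. They rest on 2 and 6 counts in the 0 min cultures, and were 2.17 and 1.76 without culture 1, and 4.06 and 3.65 without culture 2, at 0 min. LINC00478 and HOTAIRM1, named here after their values were seen, were the other members called at 30 min. LINC00478 had 2.17, and 1.52 or 3.18 without culture 1 or culture 2 at 0 min, each called. HOTAIRM1 had 0.82 (adjusted p = 0.0445), and was not called with size factors (0.64, adjusted p = 0.117) or without culture 1 at 30 min (0.69), culture 2 at 30 min (0.97), culture 1 at 15 min (0.84) or culture 1 at 0 min (0.56).

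Of 9 tested host RNAs of small nucleolar RNAs and mainly cytoplasmic lncRNAs, 3 rose and 1 fell at 5 min (4 and 0 with total counts). At 30 min 8 rose and 0 fell. Over all tested genes 54.7% were called at 5 min and 55.9% at 30 min, in either direction. SNHG15, a snoRNA host, was the one that fell at 5 min. It averaged 419 CPM at 0 min, 268 CPM at 5 min (log2 fold change to 0 min -0.65, adjusted p = 0.00427) and 981 CPM at 30 min (1.23, adjusted p = 6.66e-07), and with total counts its log2 fold change at 5 min was 0.09 and not called. Its fall was also not called without culture 2 at 5 min (-0.46, adjusted p = 0.128) or culture 2 at 0 min (-0.47, adjusted p = 0.0947). From 5 to 30 min 6 of the 9 rose, against 1 of 7 on the nuclear list and 0 of the 4 members, a difference that was not tested. Between these times 5.88% of all tested genes were called higher. ZFAS1, another host, rose at both times (log2 0.95 and 1.61).

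Genes around the members moved in both directions, as did all tested genes. Beside the counts below stand 54.7% of all tested genes called at 5 min and 55.9% at 30 min. The neighbours were not tested against these shares. Near MALAT1, 9 of 14 neighbours were tested, of which 2 rose and 4 fell at 5 min (4 and 0 with total counts) and 3 rose and 1 fell at 30 min. FRMD8 had a log2 fold change of -2.16 at 5 min (adjusted p = 0.0289), which was no longer called with total counts (-1.44) or without culture 2 at 5 min (-1.59), culture 2 at 15 min (-2.14) or culture 1 at 0 min (-1.49). KCNQ1OT1 lies wholly inside KCNQ1, on the other strand, and shares 121 bases with KCNQ1 exons in GRCh38. Use of strand in the counting was not given in the sources used here, so KCNQ1 intron reads counted there could not be told apart from KCNQ1OT1. KCNQ1 itself, a potassium channel gene, had 4 counts in all: 0 at 0 and 5 min, 0 and 3 at 15 min, and 1 and 0 at 30 min. The imprinted genes CDKN1C, SLC22A18 and PHLDA2, which KCNQ1OT1 is known to silence on the paternal chromosome, had 0 to 5 counts in every culture, too few to test. Of 3 tested neighbours of KCNQ1OT1, 0 rose at 5 min (1 with total counts), and CARS fell (log2 -1.89 at 5 min, adjusted p = 2.46e-05).

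MORC2, which shares the TUG1 promoter shown above, averaged 19.6 CPM at 0 min, 32.8 CPM at 5 min and 23.7 CPM at 30 min, with log2 fold changes to 0 min of 0.67 (adjusted p = 0.196) and 0.24 (adjusted p = 0.659). TUG1 was called at both times and MORC2 at neither, although with total counts MORC2 was called at both (1.40 and 1.105), and the difference between them was not tested. Of 5 tested neighbours of TUG1, 0 rose at 5 min (2 with total counts) and 1 fell, SELM, where 54.7% of all tested genes were called. Around FTX, 4 neighbours were tested and 3 rose at 5 and at 30 min, among them RLIM, the ubiquitin ligase whose mouse counterpart promotes X inactivation, with log2 fold changes of 1.60 and 2.18. JPX, the lncRNA that overlaps FTX by 123854 bases on the opposite strand in GRCh38, was the exception. It averaged 250.2 CPM at 0 min, 233 CPM at 5 min and 185 CPM at 30 min, with log2 fold changes to 0 min of -0.09 (adjusted p = 0.706) and -0.44 (adjusted p = 0.0501). Without culture 2 at 0 min the lower level at 30 min was called (-0.56, adjusted p = 0.0356), and it was called with size factors (-0.61, adjusted p = 0.00769). With total counts JPX was called higher at both times, at 0.64 and 0.44. Its direction thus depends on the scaling, while that of FTX does not. Since use of strand in the counting was not given, reads in the bases that FTX and JPX share could not be told apart. The same holds for TUG1, which the lncRNA AC004542.2 overlaps by 2334 bases on the opposite strand.

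mRNAs of proteins that work with these RNAs moved in both directions, as did all tested genes. Of the latter, 54.7% were called at 5 min and 55.9% at 30 min, and no list was tested against that share. Of 26 tested mRNAs of nuclear speckle proteins, 5 rose and 10 fell at 5 min, and 7 rose and 9 fell at 30 min, against 11 higher and 5 lower, and 16 and 2, with total counts. SRSF4, a splicing factor, rose (log2 2.08 at 5 min and 1.75 at 30 min), MAGOH, a part of the exon junction complex, fell (-2.08 and -2.64), and SON, the speckle scaffold, had -0.39 (adjusted p = 0.0652) and -0.11 (adjusted p = 0.620), the last being a called 0.77 with total counts. Of 17 mRNAs of Polycomb repressive complex 2, H3K9 methyltransferases and DNMT1, the maintenance DNA methyltransferase, some of which Kcnq1ot1 is known in mouse to bring to chromatin, 5 rose and 5 fell at each of these times, against 11 and 3 at 5 min and 10 and 1 at 30 min with total counts. EZH2, the catalytic subunit of that complex, and its partner JARID2 rose at 5 min (log2 2.22 and 2.67), whereas DNMT1 fell (-1.32).

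Of the RNAs of RNase P, RNase Z and METTL16, 13 were tested, among them RPPH1, the noncoding RNA of RNase P. Of these 2 rose and 6 fell at 5 min (median log2 fold change -0.86), and 3 rose and 5 fell at 30 min, against 3 and 2, and 6 and 3, with total counts. The RNase P subunit mRNAs RPP30 and POP5 fell (log2 -1.08, no longer called with total counts at -0.34, and -1.56 at 5 min), and METTL16, a methyltransferase that binds the MALAT1 triple helix, rose (2.20). Of 22 mRNAs of nuclear RNA decay factors and their adaptors, 6 rose and 13 fell at 5 min, and 5 rose and 12 fell at 30 min, against 7 and 5, and 8 and 7, with total counts. The exosome subunit EXOSC5 fell (log2 -1.97 at 5 min), and PAPD5, a poly(A) polymerase that marks RNA for decay, rose (2.92). The share called over all tested genes was 54.7% at 5 min and 55.9% at 30 min.

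**Figure D4:**
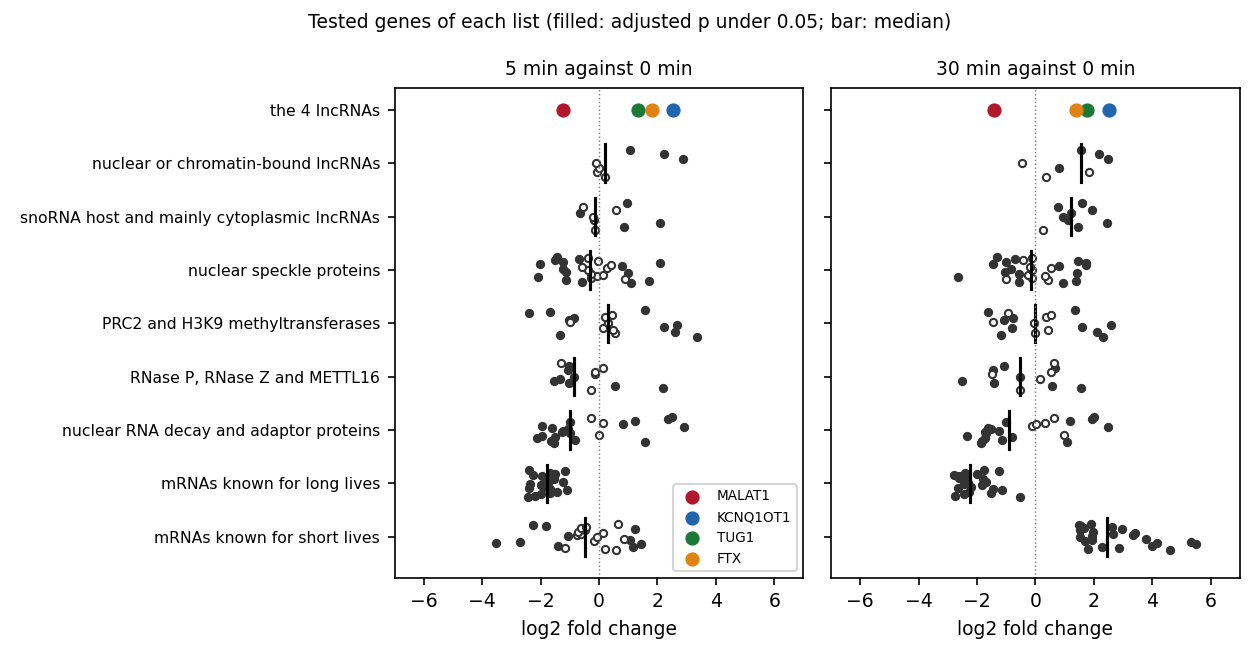
Log2 fold change (horizontal axis) of each tested gene of 8 gene lists and of the 4 lncRNAs (top row, coloured) at 5 min (left) and 30 min (right) against 0 min. Filled points have an adjusted p under 0.05 and bars are list medians; under TMM all mRNAs known for long lives lie below 0 in both panels (with total counts ACTB at 30 min does not), and all mRNAs known for short lives lie above 0 at 30 min.

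The genes most like each member over the 8 cultures were sought among 8658 tested genes with a mean of at least 10 CPM, by the root mean square distance of centred log2 CPM. For MALAT1 they were EIF4E2, MRPL13, SPDL1 and SEC61B, at distances of 0.07 to 0.12. EIF4E2, the nearest, averaged 266 CPM at 0 min, 118 CPM at 5 min, 128 CPM at 15 min and 93.0 CPM at 30 min. The genes nearest to KCNQ1OT1 were RHOQ, USP43, CELF2 and MSI2 (0.11 to 0.18), and RHOQ averaged 12.7 CPM at 0 min, 75.2 CPM at 5 min, 84.6 CPM at 15 min and 79.2 CPM at 30 min. For TUG1 they were CASP2, SESN2, DHX34 and YTHDF3 (0.11 to 0.15), and for FTX PRKD3, WWOX, PIAS2 and GPATCH2 (0.09 for each). PRKD3 had the early peak of FTX, with 115 CPM at 0 min, 432 CPM at 5 min, 325 CPM at 15 min and 312 CPM at 30 min. Between the members the distances were 0.34 for TUG1 and FTX, 0.53 for KCNQ1OT1 and FTX, 0.55 for KCNQ1OT1 and TUG1, and 1.22 to 1.68 for MALAT1 and each of the others.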

How the data were processed

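The deposited data are 1 table of counts, all whole numbers, with 32738 gene entries and 32 libraries. Per the submitters' processing notes, reads were aligned to hg19 with STAR, of a version not given in the sources used here. Neither the use of strand nor of molecular identifiers in the counting was given. Each library column was assigned through the barcode that its header shares with 1 sample label, and the 4 libraries of a culture were summed, since libraries of 1 cDNA are not separate samples. Because the annotation used for sequences is of another build, hg19 coordinates are not given.

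Differences were tested with edgeR 4.0.16 (R 4.3.3), with TMM scaling and filterByExpr, in 1 quasi-likelihood fit over 8 cultures with 4 residual degrees of freedom. The common biological coefficient of variation was 15.3%, and 10.3% to 13.4% for the 4 lncRNAs. DESeq2 1.42.0 was an alternative. Exact permutation tests were computed by enumeration in Python 3.11.15, and counting intervals are at 95%. For each of the 10439 genes, the deviation of culture 1 from the mean of its time was taken in log2 CPM. Between 2 times these deviations, not the levels themselves, correlated at -0.03 to 0.08. Replicate numbers were therefore not used as pairs. The lncRNAs, the gene lists and the rule for naming genes were chosen with earlier results of these data known. The rule names, per list, the 2 tested members with the highest mean CPM and the largest called rise and fall at 30 min, set neighbours, and the 4 genes most like each lncRNA. PVT1, GAS5, H19, MIR374A and other list genes without an entry were not analysed here. A gene that the rule names is not reported here. The NRF1 motif was widened to allow either pyrimidine at 1 position after the windows had first been searched.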

Additional observations from a re-analysis of the deposited data

How the results depend on the processing

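MALAT1 kept its lower level and KCNQ1OT1, TUG1 and FTX their higher level against 0 min, past the threshold, under another size-factor scaling, no filter on low counts, DESeq2, only the 2 times compared, 1 library per cDNA, the replicate block and leaving out each culture. The exception was MALAT1 at 15 min with total counts, at -0.30. Replicate numbers did not pair the cultures, and with them as a replicate block 2928 genes were higher and 2664 lower at 5 min against 0 min, compared with 2998 and 2712 without it. Of the genes named, the block changed the call of JPX (log2 -0.45 at 30 min, adjusted p = 0.0482) and HOTAIRM1 (0.82, adjusted p = 0.0506). Total counts gave 1448 lower genes at 5 min, against 2712, 4901 higher and 1307 lower at 15 min, against 3110 and 2573, and 5622 higher and 1331 lower at 30 min, against 3352 and 2485. For 30 against 5 min, 614 genes were higher (367 by DESeq2) and 681 lower (1122 with size factors in edgeR, 311 with total counts, 414 with no filter), and leaving out a culture gave 305 to 770 and 165 to 857. For 15 against 5 min, 108 were higher and 54 lower, with 171 and 87 in a fit of the 2 times alone, 63 higher by DESeq2, and 61 to 161 and 0 to 113 without 1 culture. The 0, by edgeR without culture 2 at 15 min, stood beside 288 lower genes at an unadjusted p under 0.05, and DESeq2 on all cultures gave 41. For 30 against 15 min, 236 were higher and 290 lower, with 513 higher in a fit of the 2 times, 111 by DESeq2, and 65 to 315 and 52 to 354 without 1 culture. Fewer cultures leave fewer degrees of freedom by construction, and the cause of the other shifts was not tested.

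Between incubated times, FTX at 30 against 5 min was called with size factors (-0.53), and values near 0 changed sign with no call: KCNQ1OT1 at 30 against 5 min was -0.0895 with size factors, -0.0879 with DESeq2, -0.006 with the replicate block and -0.27 to 0.26 without 1 culture, and at 30 against 15 min 0.0359 with total counts and -0.36 to 0.17. FTX at 30 against 15 min was 0.065 with total counts and -0.062 to 0.0112, MALAT1 at 15 against 5 min -0.0098 to 0.33, and TUG1 -0.20 to 0.32. With total counts some listed genes changed sign against 0 min: at 5 min JPX to 0.64, SNHG15 to 0.0883, DPF2 to 0.0756, ID2 to 0.66 and HES1 to 0.58, and at 30 min JPX to 0.44, SRSF7 to 0.46, SON to 0.77, NAP1L4 to 0.79, VIM to 0.014 and CDKN2A to 0.72.

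The log2 differences of the ratios without 1 culture were -4.17 to -3.56 for MALAT1 to KCNQ1OT1, -2.86 to -2.62 to TUG1, -2.87 to -2.70 to FTX, 0.92 to 1.33 for KCNQ1OT1 to TUG1, 0.77 to 1.39 to FTX and -0.16 to 0.0665 for TUG1 to FTX. The adjusted p of the first 5 was then 0.0571 or 0.171, the smallest possible. With 1 library per cDNA the 6 differences were -3.68, -3.23, -2.76, 0.45, 0.92 and 0.47, none past the threshold. Single times moved beyond the spread for MALAT1 to TUG1 at 30 min (-3.20), MALAT1 to FTX at 15 min (-2.51), KCNQ1OT1 to FTX at 5 min (0.77) and TUG1 to FTX at 5 and 30 min (-0.50 and 0.40). Depth limits KCNQ1OT1 and TUG1 at 0 min, with 10 to 30 counts a culture.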
